A study of Homo sapiens with 12 samples.

Results

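A set of 10 selective autophagy genes was followed through all 12 libraries: the cargo receptors SQSTM1, NBR1, OPTN and TAX1BP1, the ATG8-family genes MAP1LC3B, GABARAPL1 and GABARAPL2, the initiation genes ULK1 and WIPI1, and TFEB, a transcription factor of autophagy and lysosome genes. They were taken by gene symbol from the 58676 genes of the deposited table, and 9 of the 10 had a mean level of at least 1 FPKM (fragments scaled to gene length and library depth) and were tested. TFEB, at a mean of 0.589 FPKM, was not. The libraries came from A549, a human lung carcinoma line, as a control line (genotype Control1) and 2 NFE2L1 knockout lines (KO1 and KO2). Each line was exposed for 4 h to DMSO vehicle or to 200 nM bortezomib, a proteasome inhibitor, giving 6 groups of 2 libraries. The sources used here do not say how the knockout lines were made, whether each is a single clone, or whether the libraries of a group came from separate cultures, so p-values measure the spread between these libraries, which may be technical.

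Selective autophagy delivers chosen cargo, such as ubiquitinated protein aggregates, to the lysosome. Receptors bind the cargo with a ubiquitin- or cargo-binding domain and the ATG8 proteins of the forming autophagosome membrane with a short motif, while the ULK1 kinase complex starts the process and WIPI proteins mark the membrane where it grows. When the proteasome is blocked, as by bortezomib, ubiquitinated proteins accumulate and autophagy is another route for their removal. NFE2L1 is a transcription factor that raises proteasome subunit genes under such a block, which is the question behind the knockout.

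Each group held 1 library with the suffix R2 and 1 partner, which carried R1 in the knockout lines and no number in the control line. Depth was 13211608 to 23819258 assigned reads per library. Mitochondrially encoded genes took 12.3% to 19.3% of reads in the 6 R2 libraries and 5.44% to 6.80% in the other 6, so R2 and partner differed beyond the groups. Same-suffixed libraries deviated together, and each result below is given from limma without the suffix and, where that changes the call, with the suffix as a block. A gene was called at an adjusted p under 0.05, adjusted over all 12194 genes tested. NFE2L1 itself was lower in every knockout library than in every control library, at 8.45 to 14.8 FPKM in KO1 and 18.6 to 33.6 FPKM in KO2 against 72.7 and 151 FPKM in the control line in vehicle. The log2 fold change in vehicle was -3.11 in KO1 and -2.02 in KO2 (limma adjusted p 0.0666 and 0.371 without the block), and -3.27 and -2.18 with the block (6.2e-05 and 0.000449). Of the epithelial markers, KRT8 (126 to 703 FPKM) and KRT18 (112 to 586 FPKM) were high, and EPCAM (1.25 to 10.6 FPKM) and CDH1 (1.42 to 9.53 FPKM) were low. Leukocyte and endothelial markers (PTPRC, CD3E, PECAM1 and VWF) stayed at or below 0.0602 FPKM. Of the fibroblast markers PDGFRB was at most 0.134 FPKM and COL1A1 reached 23.3 FPKM.

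The ATG8 genes spanned nearly the whole range of bortezomib responses of the 9 tested genes, from the highest (GABARAPL1) to the next to lowest (GABARAPL2, just above the receptor NBR1), and the 250 bases upstream of their RefSeq starts (GRCh38.p14, plus strand) are shown for that contrast. GABARAPL1 lies at chr12:10212627-10212876, MAP1LC3B at chr16:87392086-87392335 and GABARAPL2 at chr16:75566129-75566378. Capitals mark the motif matches found.
GABARAPL1: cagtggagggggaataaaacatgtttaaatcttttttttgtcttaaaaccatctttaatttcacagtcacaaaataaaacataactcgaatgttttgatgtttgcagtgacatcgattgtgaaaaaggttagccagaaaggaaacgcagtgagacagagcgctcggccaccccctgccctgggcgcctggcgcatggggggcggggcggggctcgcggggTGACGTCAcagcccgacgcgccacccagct
MAP1LC3B: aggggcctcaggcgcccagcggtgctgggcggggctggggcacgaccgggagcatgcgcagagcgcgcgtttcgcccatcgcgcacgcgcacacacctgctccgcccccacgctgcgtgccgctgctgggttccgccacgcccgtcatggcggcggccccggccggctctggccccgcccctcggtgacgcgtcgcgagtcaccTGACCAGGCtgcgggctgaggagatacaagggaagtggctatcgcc
GABARAPL2: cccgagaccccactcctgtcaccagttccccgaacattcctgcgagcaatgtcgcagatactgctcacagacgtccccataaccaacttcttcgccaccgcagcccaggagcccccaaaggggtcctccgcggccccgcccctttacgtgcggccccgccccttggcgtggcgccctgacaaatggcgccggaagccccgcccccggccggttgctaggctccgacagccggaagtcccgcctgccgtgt
All 10 genes had at least 1 RefSeq window, 17 windows in all, each from 250 bases before to 50 bases after a start. They were searched on both strands. The antioxidant response element core TGACNNNGC matched 1 of the 17, in MAP1LC3B at bases -46 to -38 from the start, against 13.3% of 35116 windows of the same length over all genes. The E-box CACGTG (7.26% of all windows), the ATF4 element TGATGNAAN (3.61%) and the heat shock element (0.49%) matched none of the 17. The cAMP response element TGACGTCA was searched only after these windows had been read, and it matched 1 of the 17, in GABARAPL1 at bases -30 to -23, against 1.85% of all windows. No match overlapped another. The GC content of the printed sequences was 51.6% for GABARAPL1, 74.8% for MAP1LC3B and 68.4% for GABARAPL2. These matches describe letters in the windows, and the data hold no measurement of binding.

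Most of these transcripts were higher with bortezomib, in the control line and in both knockout lines. GABARAPL1 moved most, by 7.20 to 11.98 times between libraries paired by line and suffix, followed by MAP1LC3B (2.49 to 4.37 times) and ULK1 (1.42 to 5.08 times). TAX1BP1, SQSTM1, OPTN and WIPI1 were also higher in all 6 pairs. NBR1 was higher in 5 of 6 pairs and GABARAPL2 in 4 of 6, while TFEB was higher in 1 of 6. Thus 7 of the 9 tested genes were higher in every pair, where 24.8% of all tested genes were. The median ratio over the 6 pairs had a median of 1.76 over the 9 genes and 0.989 over all genes tested. In 3 genes (SQSTM1, ULK1 and GABARAPL1) every bortezomib library lay above every vehicle library, against 4.35% of all tested genes. For the mean of the 3 lines limma called 2 of the 9 higher without the block (GABARAPL1 and ULK1) and none lower. Among all genes 4.85% were then called higher and 11.6% in either direction. With the block limma called 7 of the 9 higher and none lower, where 27% of all genes were called higher and 54.9% in either direction. The median log2 fold change was 0.76 over the 9 genes and -0.01 over all genes tested.

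**Figure D1:**
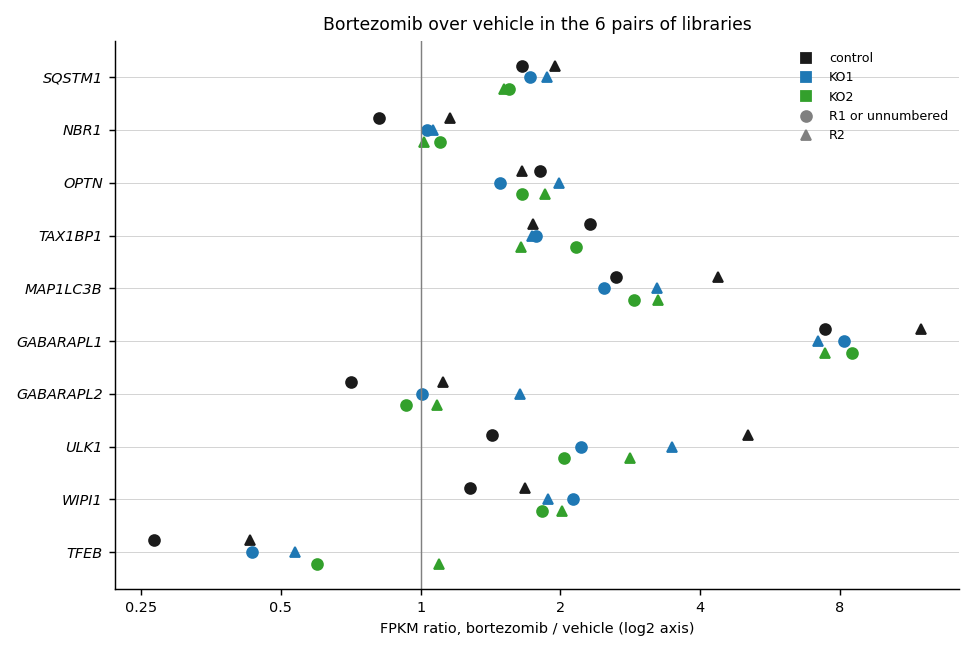
FPKM with bortezomib divided by FPKM with vehicle (horizontal log2 axis) for each of the 10 genes in the 6 pairs of libraries that share a line and a suffix. Colours are the lines, circles the R1 or unnumbered pairs and triangles the R2 pairs, and points right of 1 are higher with bortezomib. GABARAPL1 lies between 7.20 and 11.98, NBR1 and GABARAPL2 lie on both sides of 1, and TFEB lies below 1 in 5 of 6 pairs.

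Among the receptors, SQSTM1 (ENSG00000161011, chromosome 5, 179806398 to 179838078, plus strand) encodes p62, which gathers ubiquitinated proteins into condensates and also binds KEAP1. Its FPKM in vehicle was 106 and 56.0 in the control line (unnumbered and R2), 90.6 and 68.3 in KO1 (R1 and R2) and 87.4 and 74.7 in KO2 (R1 and R2). With bortezomib these libraries stood at 175 and 109 (control line), 156 and 128 (KO1) and 135 and 113 (KO2). The groups did not overlap, although the lowest bortezomib value (109) was close to the highest vehicle value (106), and both were from the control line. Over the 3 lines the log2 fold change was 0.76 (SE 0.27, limma adjusted p 0.103), and 7.68e-05 with an SE of 0.08 under the block.

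TAX1BP1 (ENSG00000106052, chromosome 7, 27739331 to 27844564, plus strand) encodes a ubiquitin-binding receptor that brings in the ULK1 complex. Its FPKM in vehicle was 16.2 and 8.75 in the control line, 14.5 and 7.36 in KO1 and 14.8 and 9.05 in KO2, and with bortezomib 37.5 and 15.3, 25.8 and 12.8, and 31.9 and 14.9. The R2 libraries with bortezomib overlapped the partner libraries in vehicle, so its rise is seen only within a suffix. On the log2 scale the rise was 0.86 (limma adjusted p 0.145, and 7.46e-05 with the block). OPTN (ENSG00000123240, chromosome 10, 13099449 to 13138308, plus strand) encodes optineurin, a receptor for ubiquitinated mitochondria and bacteria that TBK1 phosphorylates. Its FPKM in vehicle was 11.4 and 4.05, 15.7 and 5.40, and 12.1 and 6.25, and with bortezomib 20.5 and 6.70, 23.3 and 10.7, and 20.0 and 11.6. As for TAX1BP1, groups overlapped between suffixes and separated within them. Its log2 fold change was 0.72 (limma adjusted p 0.297, and 0.000306 with the block).

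NBR1 (ENSG00000188554, chromosome 17, 43170481 to 43211689, plus strand), a receptor that works with p62 on protein aggregates, did not follow. Its FPKM was 15.6 and 6.93, 17.1 and 7.498, and 14.6 and 8.58 in vehicle, and 12.7 and 8.02, 17.6 and 7.96, and 16.1 and 8.72 with bortezomib. The values of the treatments overlapped within each suffix, although all 3 R2 pairs were slightly higher with bortezomib. The log2 fold change was 0.03 (limma adjusted p 0.968, and 0.806 with the block). With the block its 95% interval was -0.18 to 0.24, and a rise as large as that of SQSTM1 (0.76) lay outside it. Without the block the interval was -0.70 to 0.76 and reached the rise of SQSTM1. The difference between the 2 receptors was not itself tested.

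Of the ATG8 genes, GABARAPL1 (ENSG00000139112, chromosome 12, 10212458 to 10223130, plus strand) encodes a GABARAP-subfamily protein that is conjugated to autophagosome membranes. In vehicle it had an FPKM of 4.02 and 1.18 in the control line, 1.73 and 0.896 in KO1 and 3.71 and 2.20 in KO2, and with bortezomib 29.9 and 14.1, 14.1 and 6.46, and 31.6 and 16.3. All bortezomib libraries lay above all vehicle libraries, and KO1 was the lowest line in both treatments for each suffix. Over the 3 lines it rose by 2.52 on the log2 scale (SE 0.32, limma adjusted p 0.00189, and 3.75e-07 with the block), which understates the ratio because 1 was added to these low values. At its lowest GABARAPL1 rested on 68 reads. MAP1LC3B (ENSG00000140941, chromosome 16, 87383995 to 87404779, plus strand) encodes LC3B, the protein most used as an autophagosome marker. Its FPKM was 13.2 and 3.33, 13.3 and 4.05, and 11.7 and 4.98 in vehicle and 34.8 and 14.6, 32.98 and 13.0, and 33.9 and 16.2 with bortezomib. The 3 lines were close to each other within a suffix and treatment, and the R2 library with bortezomib in KO1 (13.0) was level with the highest vehicle values. Its log2 fold change was 1.48 (SE 0.45, limma adjusted p 0.063, and 6.13e-06 with the block). Without the block it passed the threshold when the unnumbered control vehicle library (1.77, limma adjusted p 0.0468) or the KO1 vehicle R1 library (1.73, limma adjusted p 0.0462) was left out.

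GABARAPL2 (ENSG00000034713, chromosome 16, 75566351 to 75577881, plus strand) encodes the remaining ATG8 protein of the set, also known as GATE-16. Its FPKM was 13.6 and 5.82, 13.7 and 4.97, and 13.3 and 7.02 in vehicle and 9.63 and 6.51, 13.8 and 8.12, and 12.4 and 7.62 with bortezomib. It was higher with bortezomib in every R2 pair, lower in the unnumbered control pair and in the KO2 R1 pair, and close to 1 in the KO1 R1 pair. The log2 fold change was 0.05, with a 95% interval of -0.21 to 0.31 with the block (limma adjusted p 0.942, and 0.722 with the block). In the 6 R2 libraries alone it was 0.29 and in the other 6 it was -0.18 (limma adjusted p 0.156 and 0.236).

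ULK1 (ENSG00000177169, chromosome 12, 131894651 to 131923167, plus strand) encodes the kinase that starts autophagosome formation. Its FPKM was 39.9 and 16.7, 24.8 and 24.6, and 32.7 and 33.5 in vehicle and 56.8 and 84.6, 55.0 and 85.6, and 66.8 and 94.5 with bortezomib. Every bortezomib library exceeded every vehicle library, and with bortezomib the R2 library was the higher of each pair. ULK1 rose by 1.35 on the log2 scale (SE 0.28, limma adjusted p 0.0148, and 0.000476 with the block). The rise was 1.83 in the R2 libraries alone and 0.87 in the others, and it was called in each set (limma adjusted p 0.00217 and 0.00522). The widest pair ratio, 5.08, was that of the control R2 pair, whose vehicle library held the lowest ULK1 value of all. WIPI1 (ENSG00000070540, chromosome 17, 68420948 to 68457513, minus strand) encodes a lipid-binding protein of the growing membrane. Its FPKM was 2.02 and 0.802, 2.73 and 1.41, and 1.81 and 0.916 in vehicle and 2.59 and 1.34, 5.83 and 2.65, and 3.32 and 1.85 with bortezomib. Both KO1 libraries with bortezomib stood above their same-suffixed libraries of the other lines. WIPI1 had a log2 fold change of 0.55 (limma adjusted p 0.195, and 0.000734 with the block).

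TFEB (ENSG00000112561, chromosome 6, 41683978 to 41736259, minus strand) moved the other way from low levels. Its FPKM was 0.899 and 0.483, 1.17 and 0.944, and 0.846 and 0.358 in vehicle and 0.239 and 0.207, 0.509 and 0.507, and 0.506 and 0.393 with bortezomib, resting on 19 to 121 reads per library. It was lower with bortezomib in 5 of 6 pairs and slightly higher in the KO2 R2 pair. With no filter on low FPKM the log2 fold change of FPKM + 1 was -0.34 (limma adjusted p 0.168, and 0.0505 with the block), so it did not pass the threshold. A fit of log read counts scaled to depth, from the recovered reads (voom in limma, with the block, chosen after seeing the data) gave -0.99 (SE 0.23, limma adjusted p 0.000748), on a scale that does not compress low values as log2(FPKM + 1) does.

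**Figure D2:**
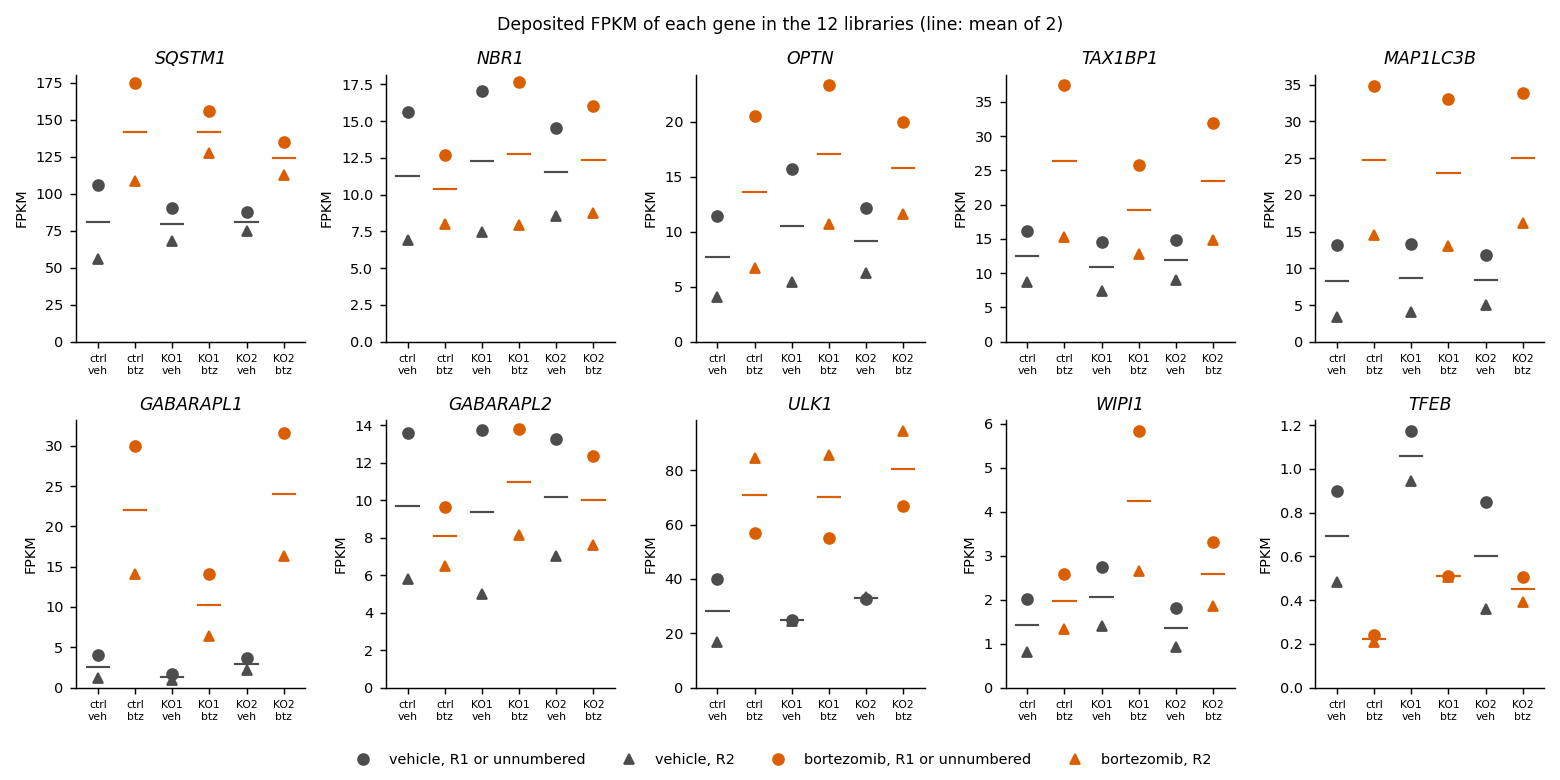
Deposited FPKM of the 10 genes in each of the 12 libraries, with a linear axis from 0 for each gene, control line (ctrl), KO1 and KO2 in vehicle (veh, grey) and bortezomib (btz, orange). Circles are R1 or unnumbered libraries, triangles R2 libraries, and the line is the mean of 2. SQSTM1, ULK1 and GABARAPL1 show no overlap between treatments, while NBR1 and GABARAPL2 are set mainly by the suffix.

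FPKM is a level per length, so levels can be ranked between genes. The length used is the exon union of each gene, so the ranks also depend on the annotation. Over the 12 libraries SQSTM1 had the highest mean (108 FPKM, rank 232 of the 12194 tested genes) and ULK1 the next (51.3 FPKM). TAX1BP1 (17.4 FPKM), MAP1LC3B (16.3), OPTN (12.3), NBR1 (11.8), GABARAPL1 (10.5) and GABARAPL2 (9.71) followed with overlapping ranges, and WIPI1 (2.27) and TFEB (0.589) were lowest. SQSTM1 lay above ULK1 in each group by its mean, from 80.9 ± 35.3 against 28.3 ± 16.5 FPKM in the control line with vehicle to 124 ± 15.9 against 80.6 ± 19.6 FPKM in KO2 with bortezomib (SD, n = 2). Among the ATG8 genes of the set (GABARAPL1, MAP1LC3B and GABARAPL2) the order changed with treatment. In vehicle GABARAPL1 was the lowest in all 6 libraries, with means of 2.60 ± 2.01, 1.31 ± 0.588 and 2.96 ± 1.07 FPKM in the control line, KO1 and KO2 (SD, n = 2). GABARAPL2 was above MAP1LC3B in all 6, as in the control line at 13.6 against 13.2 (unnumbered) and 5.82 against 3.33 FPKM (R2). Their group means were within 1 SD of each other, but that SD holds the difference between suffixes, which both genes share. With bortezomib MAP1LC3B was the highest in 5 of 6 libraries and GABARAPL1 in the KO2 R2 library.

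The suffix moved most of these genes as well. The R2 library was lower than its partner in all 6 groups for 9 of the 10 genes. How many of all tested genes were lower in this way was not counted, so this is not read as particular to the set. The median ratio of these 9 ran from 0.407 for MAP1LC3B to 0.790 for TFEB, where the median over all tested genes was 0.830. ULK1 was the exception, higher in R2 in 4 of 6 groups, with ratios from 0.417 in the control line with vehicle to 1.56 in KO1 with bortezomib. With bortezomib the same 7 genes were called higher in the 6 R2 libraries alone (20.8% of all genes) and in the other 6 alone (19.9%).

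Taken line by line, limma called none of the 9 genes without the block. The share of all genes called in either direction was then 0.467%, 0.238% and 0.32% for the control line, KO1 and KO2. With the block 6 of the 9 were called higher in the control line, where 16.1% of all genes were. In each knockout line 7 were, where 13.9% (KO1) and 12.7% (KO2) of all genes were. Leaving out each library in turn gave 4 to 6, 4 to 7 and 2 to 7 calls in the control line, KO1 and KO2, and GABARAPL1 and MAP1LC3B were called each time in all 3 lines. The gene called in the knockout lines and not in the control line was WIPI1, at log2 fold changes of 0.74 in KO1, 0.60 in KO2 and 0.31 in the control line (limma adjusted p with the block 0.00798, 0.0204 and 0.143). Its interaction, the response in the mean of the knockout lines minus that in the control line, was 0.35 (95% interval -0.07 to 0.77, limma adjusted p with the block 0.547), so the difference between lines was not shown. The rise of GABARAPL1 was 2.71, 2.22 and 2.62 for the control line, KO1 and KO2, after adding 1 to its FPKM. As FPKM ratios in the R1 or unnumbered and R2 pairs it was 7.45 and 11.98, 8.18 and 7.20, and 8.52 and 7.43. Its interaction with the block was -0.29 (95% interval -0.73 to 0.15). With the block the interaction was -0.11 (95% interval -0.50 to 0.28) for SQSTM1 and -0.16 (95% interval -0.64 to 0.31) for MAP1LC3B. The interval with the block was widest for ULK1, from -1.01 to 0.91. Without the block the spread was larger, with an SE of 0.78 for the MAP1LC3B response in the control line. No gene of the whole table was called for the interaction in either fit (0% called).

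**Figure D3:**
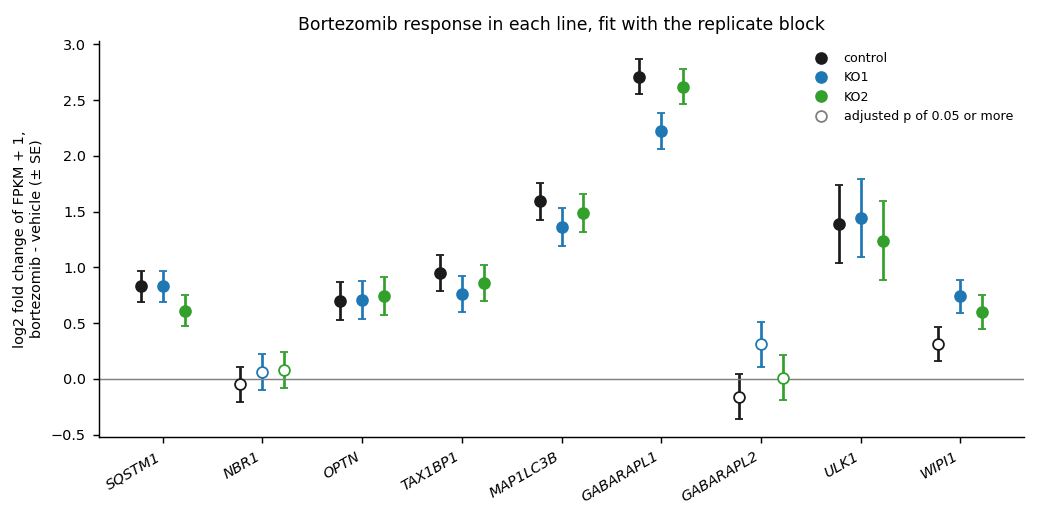
Log2 fold change of FPKM + 1 with bortezomib in each line (vertical axis), from limma with the replicate block. Bars are ± SE and open symbols have an adjusted p of 0.05 or more. GABARAPL1 stands highest at 2.22 to 2.71, NBR1 and GABARAPL2 are open in all 3 lines, and WIPI1 is open in the control line.

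The knockout lines were then set against the control line. In vehicle none of the 9 genes was called in KO1, KO2 or their mean. The shares of all genes called were 0.213%, 0.23% and 0.344% in the fit lacking the block, against 5.95%, 4.91% and 6.18% in the blocked fit. Paired by treatment and suffix (R1 with the unnumbered control library), WIPI1 and OPTN were higher in 7 of 8 pairs. TAX1BP1 was higher in 1 of 8 and GABARAPL1 in 3 of 8. The log2 fold change of OPTN in the mean of the knockout lines with the block was 0.54 in vehicle and 0.56 in bortezomib (limma adjusted p 0.123 and 0.1), short of the threshold. With R2 set against the rest as the block it was 0.34 and 0.36 (limma adjusted p 0.255 and 0.18), and without a block it was also 0.34 and 0.36 (1 in both). Leaving out each library in turn with the suffix block gave 0.46 to 0.72 in vehicle (limma adjusted p 0.0421 to 0.532) and 0.41 to 0.62 in bortezomib (0.0349 to 0.515). It passed in vehicle without the KO1 vehicle R2 library (0.72, limma adjusted p 0.0421), and in bortezomib without the KO1 vehicle R1 library (0.62, 0.036) or the KO1 vehicle R2 library (0.62, 0.0349). That block ties knockout to control lines mainly through the R2 libraries, since no control library carries R1 and every knockout library is numbered. In the mean of the knockout lines with bortezomib none was called, at 0.164% of all genes called without the block and 7.66% with it. That depends on the setting: WIPI1 was called with R2 set against the rest as the block (0.53, limma adjusted p 0.0232) and OPTN in the voom fit with the suffix block (0.63, limma adjusted p 0.0406).

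Contrasts chosen after seeing the data took KO1 and KO2 separately with bortezomib. The direct comparison of these lines follows below, since a call in KO1 and none in KO2 does not compare them. With bortezomib WIPI1 was higher in KO1 than in the control line (log2 fold change 0.79, SE 0.18, limma adjusted p with the block 0.0314) and GABARAPL1 lower (-0.84, SE 0.19, 0.0286), where 7.54% of all genes were called with the block. Without the block neither was called (limma adjusted p 1, with 0.107% of all genes called). In KO2 with bortezomib none of the 9 was called with the block, against 4.81% of all genes, nor without it, against 0.0656%. The WIPI1 call was lost when any of 10 of the 12 libraries was left out (limma adjusted p 0.0403 to 0.178 over the 12) and that of GABARAPL1 when any of 5 was (0.023 to 0.322).

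KO1 and KO2 carry the same suffixes and can be compared pair by pair. GABARAPL1 in KO1 was 0.465 (R1) and 0.408 (R2) times that in KO2 in vehicle, and 0.447 and 0.395 times with bortezomib, a narrow range. It was lower in 4 of 4 pairs. With the block its log2 difference, KO1 minus KO2, was -0.77 in vehicle (95% interval -1.13 to -0.41, limma adjusted p 0.0369) and -1.16 with bortezomib (95% interval -1.52 to -0.80, limma adjusted p 0.009). It was the only one of the 9 called, in contrasts where 3% and 1.82% of all genes were called. Without the block it was not called (limma adjusted p 1 in both, with 0.0656% and 0.041% of all genes called). With bortezomib the call with the block was lost without the KO1 R2 library (-0.99, limma adjusted p 0.117) or the KO2 R1 library (-1.06, 0.0847). In vehicle it was lost without any of the 4 control libraries or the 4 knockout vehicle libraries (limma adjusted p 0.0509 to 0.347). WIPI1 in KO1 was 1.43 to 1.76 times that in KO2 over the 4 pairs and was not called (limma adjusted p with the block 0.3 in vehicle and 0.161 with bortezomib). Since each genotype is represented by these lines alone, a knockout effect and a difference between lines cannot be told apart.

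**Figure D4:**
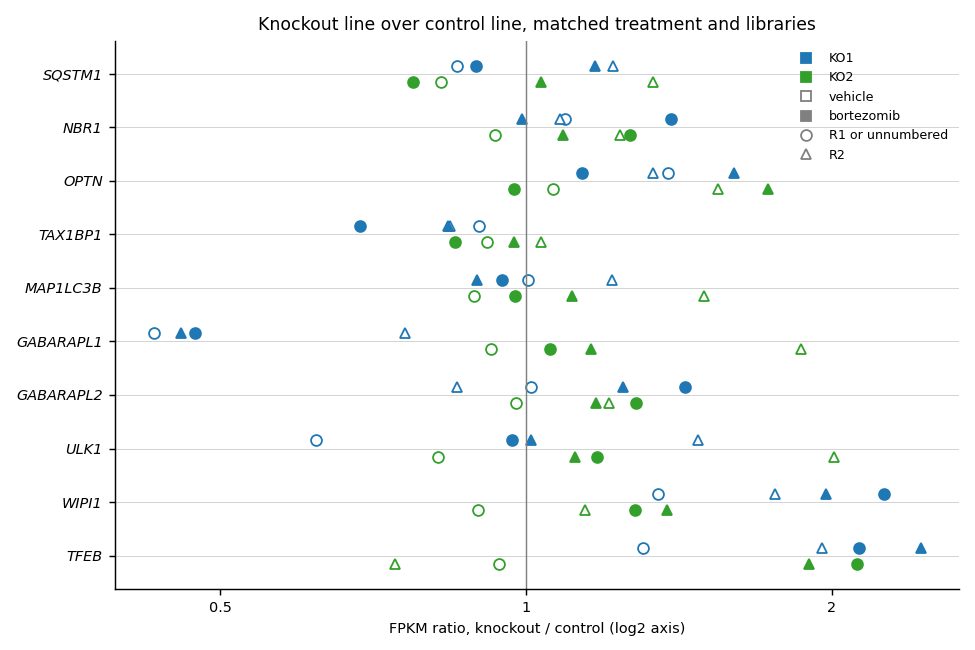
FPKM in a knockout line divided by FPKM in the control line (horizontal log2 axis) for the 10 genes, paired by treatment and suffix, with R1 set against the unnumbered control library. Blue is KO1, green KO2, open symbols vehicle, filled symbols bortezomib, circles R1 or unnumbered and triangles R2. GABARAPL1 is below 1 in all 4 KO1 pairs (0.430 to 0.761), WIPI1 is above 1 in all 4 KO1 pairs (1.35 to 2.25), and TFEB is above 1 in all 4 bortezomib pairs (1.90 to 2.45).

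TFEB in the knockout lines was compared from low counts. It was 1.30 to 2.45 times the control level in the 4 KO1 pairs, and in KO2 it was 0.941 and 0.742 times in vehicle and 2.12 and 1.90 times with bortezomib. No fit called it for a knockout contrast. In the voom fit with the block the log2 fold change with bortezomib was 1.29 in KO1 and 1.09 in KO2 (limma adjusted p 0.12 and 0.225).

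The wider pathway was read from 75 further genes in 7 lists, of which 71 were tested. For the mean of the 3 lines with bortezomib limma called 4 of the 71 higher and none lower without the block, and 34 higher and 8 lower with it, beside the 4.85% and 27% called higher among all genes given above and 6.76% and 27.9% called lower. The 4 called without the block were MAP1LC3A (log2 fold change 0.83, limma adjusted p 0.0179), ATG14 (0.95, 0.00519), ATG4D (0.63, 0.0244) and TRAF6 (0.66, 0.0257), each higher in 6 of 6 pairs. All other list calls named below were made only with the block. Initiation and membrane supply had the most calls with the block, 12 higher and 2 lower of 18. RB1CC1, the scaffold FIP200 of the ULK1 complex, rose by 1.21 (limma adjusted p with the block 1.12e-05) and ATG14, which directs the class III PI3-kinase to autophagy, was at 2.35e-05 in the same fit. In the same list PIK3R4, a subunit of that kinase, fell by 0.74 and VMP1, a membrane protein of the endoplasmic reticulum, fell by 0.46 (0.000111 and 0.00135).

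The ATG8 conjugation list had 5 higher and 2 lower of 10 with the block. ATG4A and ATG4D, proteases that process ATG8 proteins, rose by 0.85 and 0.63, while their relative ATG4C fell by 0.34 and ATG10 by 0.27 (limma adjusted p with the block 0.000154, 0.000287, 0.0163 and 0.041). Of 4 further ATG8 genes (GABARAP was listed at 0.281 FPKM or less) only MAP1LC3A was tested, and it went from a median of 1.94 to 4.75 FPKM. Among 12 other receptors 6 were higher and 1 lower with the block. CALCOCO2 (NDP52, a receptor for bacteria and mitochondria) rose by 0.77 and the endoplasmic reticulum receptor RETREG1, listed under its older name FAM134B, by 0.55, while TEX264, another endoplasmic reticulum receptor, fell by 0.57 (limma adjusted p with the block 7.92e-05, 0.00166 and 0.000416). Of 4 partners of the receptors 3 were higher. TRAF6, a ubiquitin ligase that binds p62, rose by 0.66 and NFE2L2, the factor that p62 releases from KEAP1, by 0.56 (limma adjusted p with the block 0.000143 and 0.000565).

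With the block 4 lysosome genes were higher and 2 lower of 18, and among the relatives and upstream regulators of TFEB 3 were higher and 1 lower of 8. Among all genes 27% were called higher and 27.9% lower, and no difference between lists was tested. In the TFEB list RRAGD, a GTPase that places mTORC1 on the lysosome, rose by 0.51 and FLCN by 0.41, while MTOR fell by 0.23 (limma adjusted p with the block 0.00241, 0.0124 and 0.0203). Among lysosome genes NPC1, a cholesterol exporter, rose by 0.52 and the hydrolase GLA by 0.46, while NEU1 fell by 0.38 and CTSB by 0.30 (0.000567, 0.00274, 0.00347 and 0.0198). The median log2 fold change was 0.13 for the lysosome list and 0.44 for initiation and membrane supply, beside -0.01 over all genes.

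**Figure D5:**
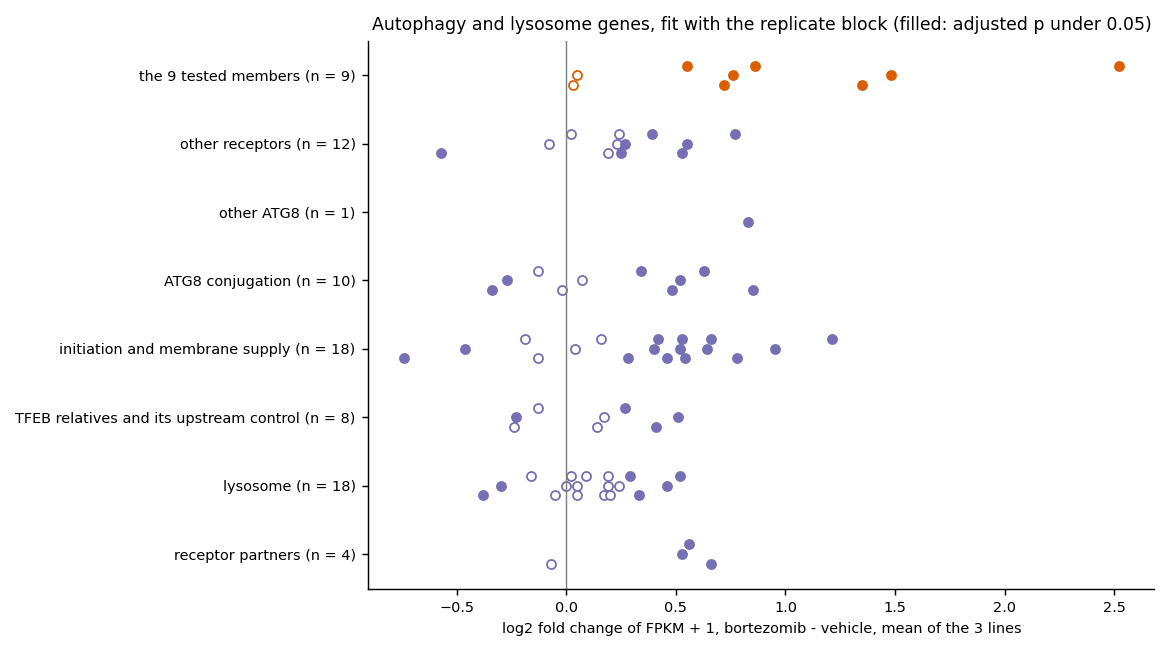
Log2 fold change of FPKM + 1 with bortezomib over the mean of the 3 lines (horizontal axis) for the 9 tested genes (orange) and the tested genes of 7 lists (purple), from limma with the replicate block. Filled points have an adjusted p under 0.05, and the vertical spread within a list only separates points. In the top row 7 of 9 points are filled, and the lysosome list has 4 filled points right of 0 and 2 left of it.

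In the knockout lines the lysosome list was the one with the most calls, all lower and only with the block. In vehicle CTSB, CTSL and NPC1 were lower in the mean of the knockout lines, by log2 fold changes of -1.17, -1.13 and -0.86 (limma adjusted p with the block 0.00488, 0.00808 and 0.0107, and 1 without it), 3 of 18 beside 2.76% of all genes. With bortezomib 6 of 18 were lower, beside 3.76% of all genes. Of these CTSB, CTSL, CTSD, ATP6V1A and NPC1 ranged from -1.23 for CTSB to -0.70 for NPC1 (limma adjusted p with the block 0.00397 to 0.0235, and 0.797 to 1 without it). CTSB and CTSL encode cathepsin proteases, and each of these 5 genes was lower in 4 of 4 pairs of that comparison. In the remaining lists, also only with the block, ATG9A (-0.53) and RETREG1 (-0.77) were lower in vehicle (limma adjusted p with the block 0.0447 and 0.0464, and 1 without it). With bortezomib ATG9A (-0.60) and RPTOR (-0.82) were lower and ATG101 (0.65) higher (limma adjusted p with the block 0.0257, 0.0384 and 0.0259, and 0.694 to 1 without it). Among all genes 6.18% were called in vehicle and 7.66% with bortezomib in either direction. Knockout calls on these lists were named after their values were seen.

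The genes whose pattern over the 12 libraries was most like that of SQSTM1 were CRTC2, CLK3, CBLL1, BRSK2 and CBFA2T2, with Pearson's r of 0.986 to 0.975 after centring within the 6 R2 libraries and within the other 6. Among the 10 genes MAP1LC3B was closest to SQSTM1 (r 0.954, rank 49 of all tested genes), then ULK1 (0.916), TAX1BP1 (0.883), GABARAPL1 (0.877), OPTN (0.873) and WIPI1 (0.706). GABARAPL2 (0.178) and NBR1 (0.123) were not alike. The highest r within the set was that of TAX1BP1 with GABARAPL1 (0.97). These values describe 12 libraries that share the treatment contrast.

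Exons of other genes overlap several of the 10 antisense, and whether counting used strand is not given in the sources used here. The share of 50-base stretches also found in transcripts of other genes in reverse orientation was highest for WIPI1 (24.1%, mainly ARSG) and SQSTM1 (20.1%, mainly MRNIP), and at most 6.85% for the others. ARSG was at most 0.560 FPKM and higher with bortezomib in 1 of 6 pairs. MRNIP (listed as C5orf45) was at 3.28 to 11.0 FPKM in vehicle and 3.31 to 10.9 with bortezomib, higher in 3 of 6 pairs, and MGAT4B, which also overlaps SQSTM1, was higher in none. FBXO31, which overlaps MAP1LC3B, was at 2.65 to 4.69 FPKM in vehicle and 3.51 to 5.28 with bortezomib, higher in 5 of 6 pairs. CCDC3, which overlaps OPTN, was higher in 4 of 6 pairs at no more than 0.620 FPKM, and JAZF1, which overlaps TAX1BP1, in 3 of 6. MAP1LC3B shared 4.82% of its stretches with other transcripts in the same orientation, mainly its copy MAP1LC3B2, which was at most 0.285 FPKM. The part of these overlaps in the results was not tested.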

How the data were processed

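RNA of 12 A549 libraries was sequenced after random-hexamer cDNA synthesis, per the labels' protocols. The deposited values are FPKM that the authors computed for 58676 genes, and the submitters' processing notes name CASAVA, STAR 2.5, HTSeq 0.6.1, DESeq2 and hg19 without roles. The gene positions in the table are those of GRCh38 (GENCODE 29, 95.2% identical), so coordinates are given in that build. The deposited gene lengths, also in the table, are exon unions. Reads were recovered from FPKM and length (100% of values whole within 0.01 of a read), which gave the depths. The strand setting and the handling of reads shared by genes are not given in the sources used here.

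log2(FPKM + 1) of the 12194 genes with a mean of at least 1 FPKM was fitted with limma 3.58.1 (R 4.3.3; trend, 1 mean per group, Benjamini-Hochberg over all genes), without and with a block for the suffix (R1, R2, none). The pairing comes from the suffixes: R2 minus partner differences correlated between groups at r = 0.696 to 0.890 over genes (median 0.811, 15 pairs of groups). Python 3.11.15, numpy 2.4.6, pandas 2.3.3 and matplotlib 3.10.9 did the rest. Simulated data were also fitted. Their noise and suffix difference came from the fit with the block, so they cannot judge the choice of block. Promoter windows are RefSeq's. Alternatives were a pseudocount of 0.1, no filter on low FPKM, voom on recovered reads, leaving out mitochondrially encoded genes, quantile normalization, each suffix class alone and leaving out each library. The block combined with no filter, with quantile normalization or with a left-out library, and the contrasts of KO1 or KO2 with bortezomib and of KO1 with KO2, were chosen after seeing the data. The 10 genes, the gene lists and the motifs were chosen with earlier results of these data known. The genes named are the 10, NFE2L1, up to 2 largest rises and 2 largest falls per list among genes called with the block, and the 5 genes most like SQSTM1. Marker genes, genes that overlap the 10, GABARAP, the 4 genes called without the block and the list genes called between knockout and control lines lie outside this rule, and apart from the markers they were named after their values were seen. With 2 libraries per group, precision is limited by their number. The result of 1 gene of the lysosome list is not reported here.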

Additional observations from a re-analysis of the deposited data

How the results depend on the processing

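The suffix block decided most calls. For the mean bortezomib response 7 of the 9 genes were called under every setting with the block and in each suffix class alone. The fit with neither the block nor any other alternative called 2, and quantile normalization without the block gave 4. The share of all genes called after quantile normalization was not counted. Over the 6 settings without the block GABARAPL1 and ULK1 were called in all 6, MAP1LC3B in 2 and SQSTM1 in 1. In the control line the block gave 6 (4 with no filter), and without it the count was 1 after leaving out mitochondrial genes and 1 after quantile normalization. In KO1 it gave 7 (5 with no filter) and in KO2 7 (4 with no filter), and quantile normalization without the block gave 1 in KO2. For KO1 against the control line with bortezomib it gave 2, except with no filter. For the mean of the knockout lines in bortezomib 1 gene was called with R2 set against the rest (WIPI1, 0.53, limma adjusted p 0.0232) and 1 with voom and the block (OPTN, 0.63, 0.0406). GABARAPL1 was the 1 gene called for KO1 minus KO2 with the block in both treatments, except with no filter, and in vehicle except with R2 set against the rest. The block changed no other count.

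Leaving out each library gave 2 to 7 calls for the mean response (2 to 3 without the block, 7 with it), 0 to 6 in the control line, 0 to 7 in KO1 and 0 to 7 in KO2. It gave 0 to 1 for KO2 and for the mean knockout in vehicle and for the mean knockout in bortezomib, 0 to 3 for KO1 in bortezomib, and 0 to 1 for KO1 minus KO2 in each treatment. The gene for KO2 in vehicle was ULK1 (1.09, limma adjusted p 0.0471 without the unnumbered control vehicle library, 0.0476 and 0.0478 without the unnumbered and R2 control bortezomib libraries). Its direction rests on the control vehicle R2 library, without which it was -0.69 with the block and -0.26 without it, and without the block the values ran from -0.26 to 0.95. In the R1 and unnumbered libraries alone NBR1 turned to -0.03 and GABARAPL2 to -0.18. Without the block, leaving out a library ran NBR1 from -0.15 to 0.21 in the mean, -0.58 to 0.49 in the control line, -0.48 to 0.60 in KO1 and -0.33 to 0.48 in KO2. It ran GABARAPL2 from -0.17 to 0.27, -0.71 to 0.39, -0.34 to 0.96 and -0.41 to 0.42 in the same order. In the control line OPTN ran from -0.04 to 1.45 and WIPI1 from -0.06 to 0.69, and OPTN in the knockout lines ran from -0.30 to 0.99 in vehicle and from -0.38 to 1.11 with bortezomib. None of these reversed values passed the threshold, and the cause was not tested. Depth limits TFEB, at 19 to 121 reads, WIPI1, at 51 to 262 reads, and GABARAPL1 in vehicle.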

Other observations

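GABARAP, the founding member of its ATG8 subfamily (ENSG00000170296, chromosome 17, 7240014 to 7242770, minus strand), was listed at 0 to 0.281 FPKM, on 0 to 12 reads per library. That is below GABARAPL1 and GABARAPL2 in every library. In GENCODE 29 exons of AC120057.2, a protein-coding gene on the same strand, cover 30.5% of the exon bases of GABARAP, and exons of genes on either strand cover 55.7%. AC120057.2 itself was at 0 in all 12 libraries. For the 10 genes of the report the share covered on the same strand was 0, and on either strand it was 28.1% for WIPI1, 22.04% for SQSTM1 and at most 8.05% for the others. Whether reads that fall in such overlaps were counted was not tested, and the GABARAP value is not read as a level of expression here.

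MAP1LC3A, the remaining ATG8 gene above the filter, had an FPKM in vehicle of 3.48 and 1.79 in the control line, 2.04 and 1.35 in KO1 and 2.21 and 1.83 in KO2 (R2 second). With bortezomib it was at 4.48 and 2.98, 5.03 and 5.62, and 3.74 and 5.24. The knockout lines had the higher R2 library with bortezomib and the control line the lower. It rested on 44 to 204 reads.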
